A study of Homo sapiens with 4 samples.

Results

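The levels of 40 DNA repair genes were followed in U87 cells, a line grown from a human malignant glioma, after knockdown of PTPRN. PTPRN is a secretory granule protein of the receptor-type tyrosine phosphatase family, and the paper states that its phosphatase domain is inactive. The genes were taken by symbol from a written list. Each of the 40 was found among the 19314 genes of the deposited tables, and each had a value in all 4 libraries. The 4 libraries were 2 of the genotype PTPRN knockdown (titled PTP2) and 2 of the genotype SCR, the control. Knockdown was made with a short hairpin RNA in the vector pLKO.1, and the control cells carried the same vector with a hairpin that matches no human coding gene. A single hairpin and a single cell line were sequenced, and no label says whether the 2 libraries of a group came from separate cultures, so the p-values measure the spread between these libraries, which may be technical. The growth notes of all 4 samples name hCMEC/D3, a brain endothelial line, while their cell line label is U87.

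Cells repair DNA by several routes. Homologous recombination copies a double-strand break from the sister chromatid, and end joining seals it directly. The Fanconi anaemia pathway unhooks crosslinks between the strands, mismatch repair removes replication errors, base excision repair removes single damaged bases, and the AlkB homologues take alkyl groups off bases without cutting the strand. Several of these genes, above all those of recombination and the Fanconi anaemia pathway, are known to be transcribed mostly in the S and G2 phases. In glioma, repair of alkylated bases and of breaks is known to bear on the response to temozolomide and to irradiation.

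The levels are FPKM values, read counts divided by transcript length and by the depth of the library. They are corrected for length, so they can be compared between genes. Fold changes are differences of log2(FPKM + 1) between knockdown and SCR, with the standard error (SE) of limma. On this scale the change of a gene at a low level is understated. PTPRN itself had an FPKM of 12.1 and 11.7 in the knockdown libraries and 84.8 and 85.0 in the SCR libraries (log2 fold change −2.74, adjusted p = 1.48e-04). The library labels thus matched the level of the targeted gene.

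The depth, estimated from the steps between low FPKM values, was 18000000 reads in both knockdown libraries, 19550000 in SCR 1 and 18000000 in SCR 2. The correlation of the log2 values across genes was 0.9987 within knockdown, 0.9986 within SCR and 0.9612 to 0.9617 between the groups. Of 7 measured markers of astrocytic and glioma cells, VIM and CD44 were abundant and rose with knockdown. VIM had an FPKM of 4766 and 4565 with knockdown and 1998 and 1918 with SCR, and CD44 had 316 and 314 against 152 and 152 (log2 fold changes 1.252 and 1.048). NES fell, with 3.12 and 3.39 against 12.96 and 14.2 (log2 fold change −1.78), and OLIG2 rose at a low level, with 1.15 and 0.91 against 0.54 and 0.50. GFAP did not pass an FPKM of 0.55, SOX2 did not pass 0.27, and S100B was listed at 0 in 3 libraries. The 9 endothelial markers summed to 3.35 to 3.63 with knockdown and 4.65 to 4.70 with SCR, none passed 2.50, 2 were called higher (KDR and TEK) and 2 lower (PECAM1 and VWF). PECAM1 had 1.21 and 1.26 with knockdown and 2.39 and 2.50 with SCR, while CDH5 stayed at 0.01 to 0.03 and CLDN5 did not pass 0.03. Of the glial markers, GFAP, SOX2 and S100B were thus at or near 0. The part of these markers in the results was not tested. In bulk RNA, fewer cells of one kind and less RNA per cell cannot be told apart.

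Most of the repair genes were higher after PTPRN knockdown. At an adjusted p of at most 0.05 (limma, adjusted over all 16595 genes tested), 26 of the 40 rose, 6 fell and 8 were not called. Over all genes tested, 30.8% were called higher and 27.1% lower. The changes were modest. The median log2 fold change of the 40 genes was 0.29, against 0.01 for all genes and 0.06 for the 11272 genes whose mean FPKM was 1 or more. Of those 11272 genes, 41.1% were called higher and 33.5% lower. The ratio of the group means was at least 1.5 for 14 genes and at least 2 for 6. These 6 were FANCA, CHEK1, RAD51AP1, FANCD2, XRCC2 and BRCA1. A fold change of at least 2 on the log2(FPKM + 1) scale with an adjusted p of at most 0.001 was reached by FANCA and CHEK1 alone, 2 of the 40. Over all genes, 6.69% passed these thresholds. They are the thresholds of the study. These 2 calls were lost with the pseudocount 0.1, where 0 of all genes tested passed, and so 0 of the 40. Of the 40, 32 then had an unadjusted p under 0.05.

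Both knockdown libraries lay above both SCR libraries for 27 of the 40 genes, against 39.7% of all genes. They lay below them for 7, against 35.8% of all genes. The libraries overlapped for the other 6. Every gene in the list was expressed, with FPKM values from 1.94 for BARD1 in SCR 1 to 163 for XRCC6 in SCR 2. The lowest estimate of reads behind any value was 137, for CHEK2 in SCR 1, and 10 genes had fewer than 300 reads in some library. Leaving out any library lowered the counts of higher and of lower genes, among the 40 and among all genes tested. The median log2 fold change of the 40 was then 0.28 to 0.34. The calls of 17 of the 32 called genes held under all 12 alternatives.

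**Figure D1:**
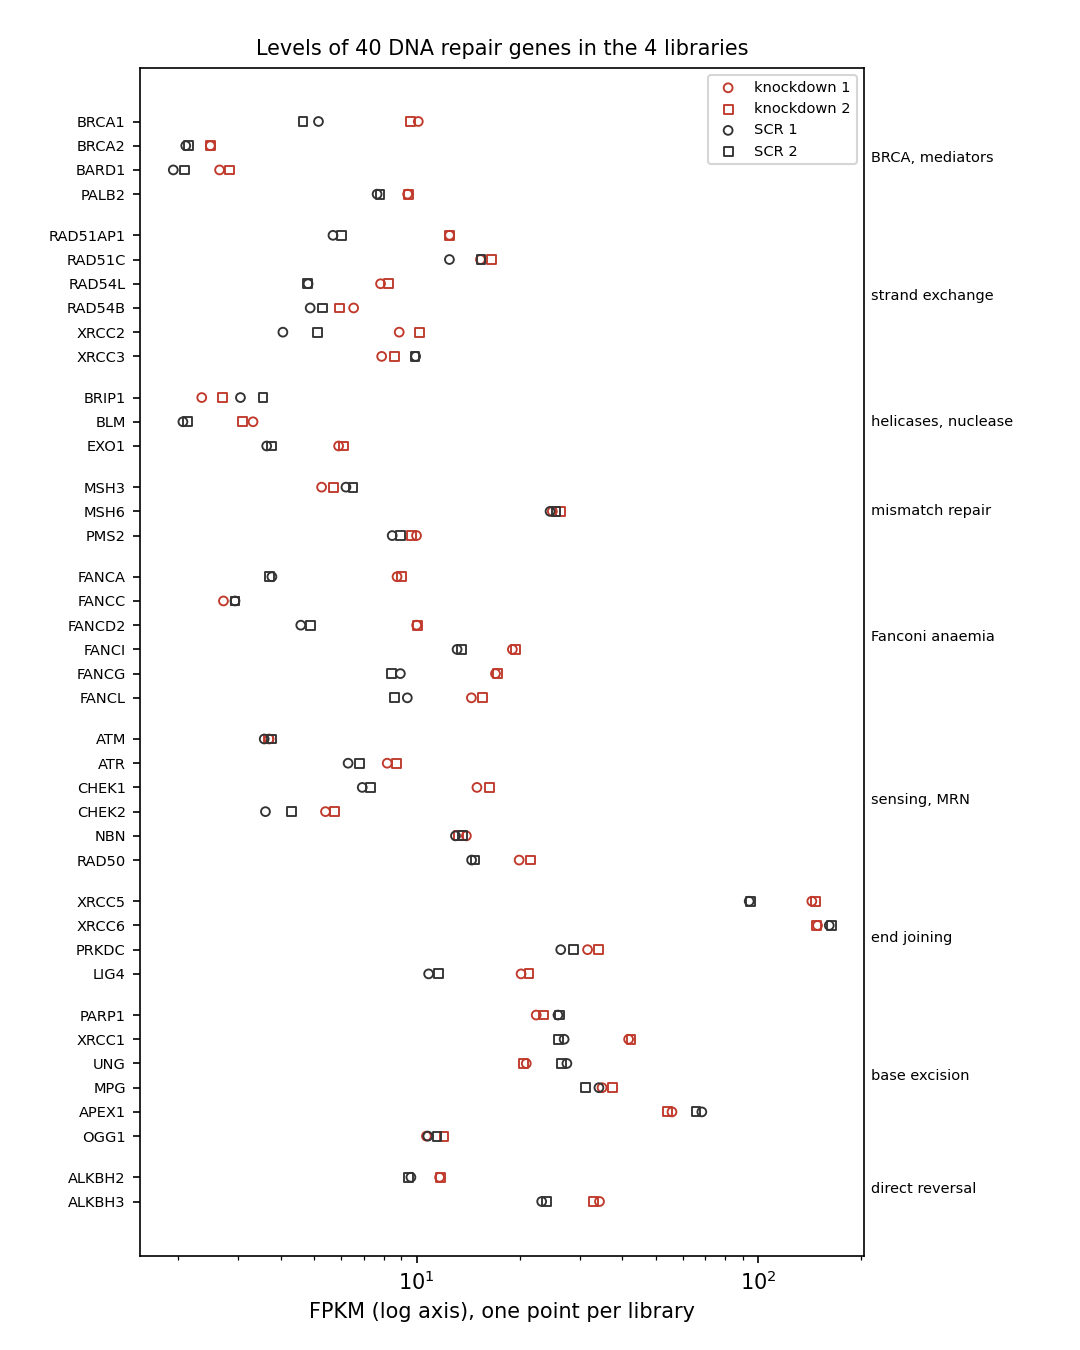
FPKM of the 40 DNA repair genes on a log axis, one point per library, with the genes grouped by role. Red marks the 2 knockdown libraries and black the 2 SCR libraries; the red points of FANCA, CHEK1 and RAD51AP1 lie clear to the right of the black ones, while those of MSH6, ATM and NBN overlap them.

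The Fanconi anaemia genes had the highest median of the role groups. Of 6 measured genes, 5 rose and 1 was not called, with a median log2 fold change of 0.79. FANCA, a subunit of the core complex that places ubiquitin on the FANCD2 and FANCI pair, had an FPKM of 8.76 and 9.04 with knockdown and 3.77 and 3.72 with SCR. The knockdown libraries were thus 2.38 times the SCR libraries on average, the largest ratio of the 40 genes (log2 fold change 1.06, SE 0.03, adjusted p = 3.42e-04). FANCA lies on chromosome 16 from 89737551 to 89816657 on the minus strand (GRCh38). FANCG and FANCL are further subunits of the core complex, and FANCL is the ubiquitin ligase. FANCG had values of 17.0 and 17.2 against 8.96 and 8.46 (log2 fold change 0.90, SE 0.04, adjusted p = 5.30e-04). FANCL had values of 14.5 and 15.6 against 9.39 and 8.63 (log2 fold change 0.68, SE 0.06, adjusted p = 0.00220).

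FANCD2 and FANCI are the clamp that the core complex ubiquitinates. Both rose, and by unequal amounts. FANCD2 went from 4.58 and 4.90 with SCR to 10 and 10.03 with knockdown (log2 fold change 0.94, SE 0.04, adjusted p = 5.21e-04). FANCI went from 13.1 and 13.5 to 19.1 and 19.4 (log2 fold change 0.50, SE 0.03, adjusted p = 0.00108). The FPKM ratio of FANCD2 to FANCI was 0.349 and 0.362 in the SCR libraries and 0.525 and 0.517 in the knockdown libraries. FANCC, another core subunit, did not follow. Its values were 2.72 and 2.94 with knockdown and 2.94 and 2.94 with SCR (adjusted p = 0.460), and quantile normalization turned its log2 fold change from −0.04 to 0.05. FANCD2 has 1 named pseudogene in GENCODE 29, and reads shared with it could not be separated here.

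The BRCA1 and BRCA2 genes and their mediators all passed the test upward, with a median log2 fold change of 0.29 over 4 genes. BRCA1 is a ubiquitin ligase that works as a dimer with BARD1 and promotes resection of the break. Its FPKM was 10.1 and 9.58 with knockdown and 5.16 and 4.65 with SCR (log2 fold change 0.88, SE 0.06, adjusted p = 0.00116). BARD1 had 2.65 and 2.84 against 1.94 and 2.09 (log2 fold change 0.31, SE 0.05, adjusted p = 0.00843). The ratio of BRCA1 to its partner BARD1 was thus higher in both knockdown libraries, at 3.82 and 3.37 against 2.66 and 2.23. PALB2 bridges BRCA1 and BRCA2, and BRCA2 loads the recombinase on DNA. PALB2 had 9.41 and 9.48 against 7.66 and 7.81 (log2 fold change 0.26, SE 0.03, adjusted p = 0.00406). BRCA2, expressed at a low level in all 4 libraries, had 2.49 and 2.49 against 2.11 and 2.15 (log2 fold change 0.16, SE 0.03, adjusted p = 0.0146). The BRCA2 call was lost with an eBayes trend (adjusted p = 0.079) and with GC and length trends removed (adjusted p = 0.099).

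The genes of strand exchange split. Of 6 genes, 4 rose, 1 fell and 1 was not called, and the median log2 fold change was 0.45. RAD51AP1, which stimulates pairing of the strands, rose most in this group. Its FPKM was 12.5 and 12.5 with knockdown and 5.69 and 6.03 with SCR (log2 fold change 0.98, SE 0.04, adjusted p = 4.58e-04). XRCC2, a mediator of strand exchange, had 8.89 and 10.2 against 4.06 and 5.14, with the widest spread between replicates of the 40 genes (log2 fold change 0.92, SE 0.12, adjusted p = 0.00646). RAD54L and RAD54B are DNA translocases that act on chromatin during strand exchange. RAD54L had 7.84 and 8.25 against 4.81 and 4.80 (log2 fold change 0.64, SE 0.04, adjusted p = 8.31e-04). RAD54B had 6.54 and 5.95 against 4.88 and 5.30 (log2 fold change 0.25, SE 0.06, adjusted p = 0.0349), a call that was lost under 4 of the 8 alternatives that kept all libraries.

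RAD51C and XRCC3 act together as a dimer in recombination, and neither rose by the test. RAD51C, the most highly expressed gene of the group, had 15.4 and 16.6 with knockdown and 12.5 and 15.4 with SCR. SCR 2 lay above knockdown 1, so the groups overlapped (log2 fold change 0.19, SE 0.11, adjusted p = 0.250). XRCC3 fell, with 7.90 and 8.62 against 9.93 and 9.89 (log2 fold change −0.24, SE 0.05, adjusted p = 0.0212). The fall of XRCC3 was no longer called with GC and length trends removed (log2 fold change −0.10, adjusted p = 0.171).

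EXO1 and BLM, which resect broken ends, both rose, while the helicase BRIP1 did not. EXO1, a nuclease that also serves mismatch repair, had an FPKM of 5.91 and 6.10 with knockdown and 3.64 and 3.75 with SCR (log2 fold change 0.58, SE 0.03, adjusted p = 8.51e-04). BLM, a RecQ helicase, had 3.32 and 3.09 against 2.07 and 2.14 (log2 fold change 0.44, SE 0.04, adjusted p = 0.00257). BRIP1, the BRCA1-associated helicase also known as FANCJ, had 2.35 and 2.71 against 3.05 and 3.55. Both knockdown values of BRIP1 were below both SCR values, and its ratio of group means, 0.767, was the lowest of the 40 genes, beside 0.768 for UNG, but it missed the threshold (log2 fold change −0.28, SE 0.09, adjusted p = 0.0573). It was called lower under 5 of the 8 alternatives that kept all libraries.

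Among the kinases that signal damage, the ATR and CHEK1 branch rose and ATM was not called. ATR, the kinase activated by stretches of single-stranded DNA, had an FPKM of 8.20 and 8.73 with knockdown and 6.30 and 6.79 with SCR (log2 fold change 0.33, SE 0.05, adjusted p = 0.0106). CHEK1, the kinase that ATR activates, had 15.0 and 16.3 against 6.93 and 7.32. Both knockdown libraries were clear of both SCR libraries, and the group means differed by a ratio of 2.20 (log2 fold change 1.04, SE 0.06, adjusted p = 7.51e-04). CHEK1 lies on chromosome 11 from 125625136 to 125676256 on the plus strand (GRCh38). ATM, the kinase activated by double-strand breaks, had 3.70 and 3.68 against 3.58 and 3.75, and the groups overlapped (log2 fold change 0.01, SE 0.03, adjusted p = 0.862). CHEK2, the kinase downstream of ATM, had 5.41 and 5.74 against 3.61 and 4.31 and was called higher (log2 fold change 0.41, SE 0.08, adjusted p = 0.0201). CHEK2 has 4 named pseudogenes, so its value is less certain.

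RAD50 and NBN belong to the MRN complex, which tethers broken ends and activates ATM. RAD50 had an FPKM of 19.95 and 21.5 with knockdown and 14.5 and 14.8 with SCR (log2 fold change 0.47, SE 0.05, adjusted p = 0.00299). NBN had 14.0 and 13.3 against 12.99 and 13.6 (log2 fold change 0.03, SE 0.04, adjusted p = 0.583). The 2 subunits had similar levels in the SCR libraries, with a ratio of RAD50 to NBN of 1.12 and 1.09, and the ratio was 1.43 and 1.62 in the knockdown libraries.

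End joining held the highest levels of the list. XRCC5 and XRCC6 encode the Ku80 and Ku70 proteins, which bind DNA ends as a dimer. XRCC5 had an FPKM of 143 and 147 with knockdown and 94.0 and 95.1 with SCR (log2 fold change 0.61, SE 0.03, adjusted p = 6.59e-04). XRCC6 had 149 and 148 against 161 and 163, so the 2 genes of the dimer moved in opposite directions (log2 fold change −0.13, SE 0.03, adjusted p = 0.0271). The ratio of XRCC5 to XRCC6 was 0.583 and 0.582 in the SCR libraries and 0.963 and 0.989 in the knockdown libraries. The small fall of XRCC6 was not called with the pseudocount 0.1 (adjusted p = 0.0709) or with the replicate block (adjusted p = 0.0602), and XRCC6 has 5 named pseudogenes. LIG4, the ligase that seals the break, had 20.2 and 21.3 against 10.8 and 11.6 (log2 fold change 0.83, SE 0.05, adjusted p = 9.33e-04). PRKDC, the catalytic subunit of the DNA-dependent protein kinase, had 31.6 and 34.1 against 26.4 and 28.8 (log2 fold change 0.24, SE 0.07, adjusted p = 0.0411), a call that 3 of the 8 alternatives with all libraries lost.

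**Figure D2:**
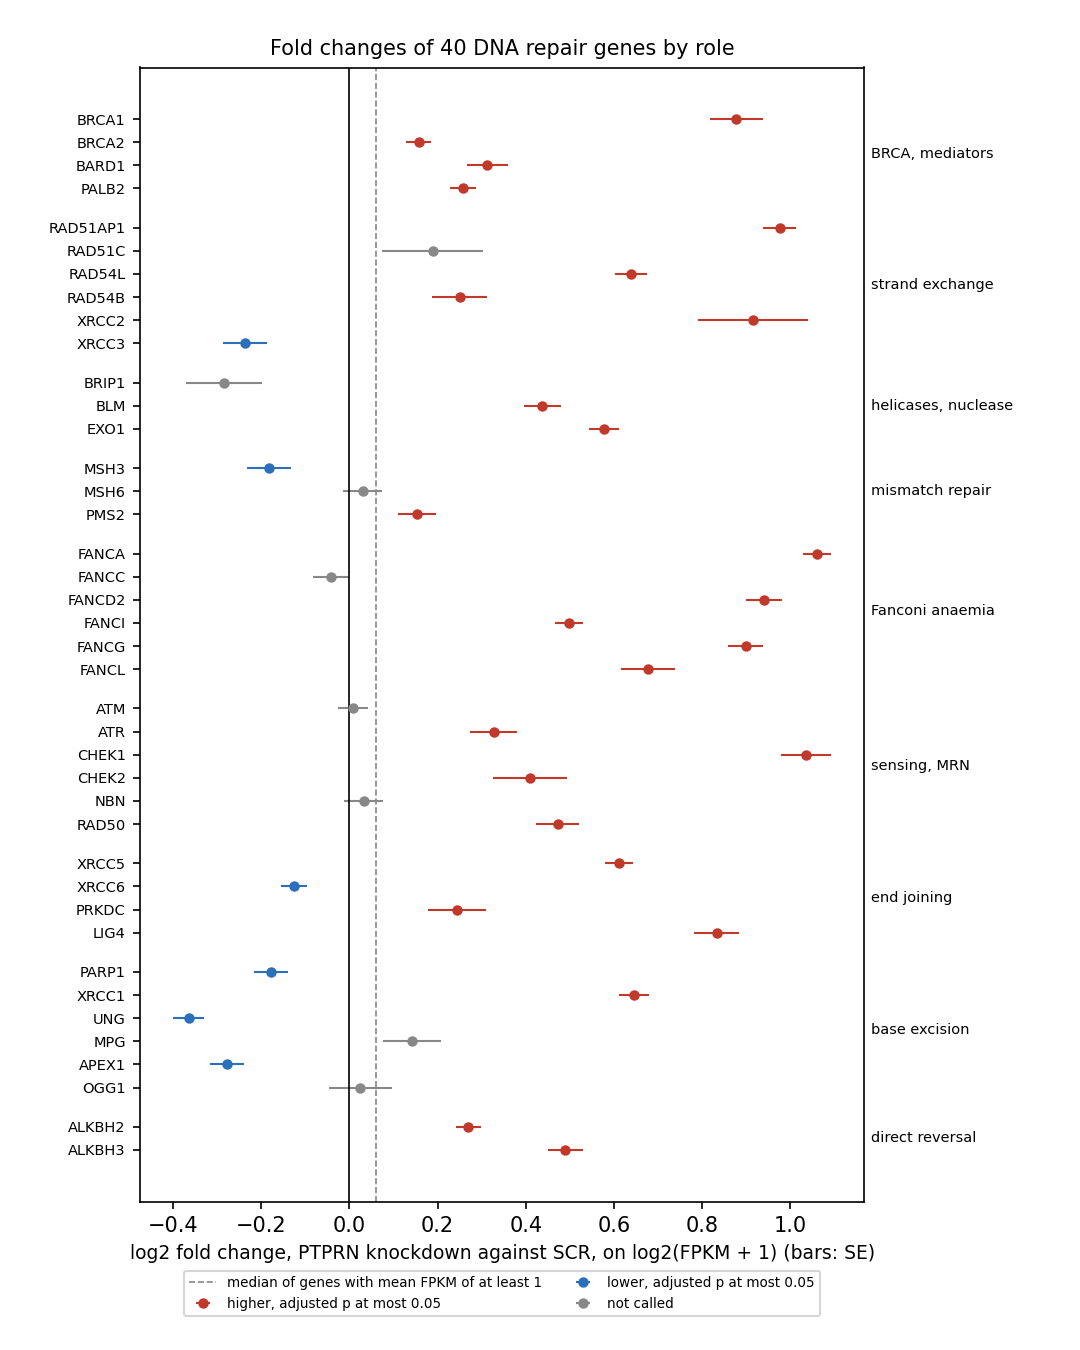
Log2 fold change of each gene on the log2(FPKM + 1) scale, PTPRN knockdown against SCR, with bars of 1 SE, grouped by role. Red points were called higher, blue points lower and grey points were not called at an adjusted p of 0.05. The dashed line is the median over genes whose mean FPKM was 1 or more, and 3 of the 6 blue points are base excision repair genes.

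Base excision and single-strand break repair was the group with the most falls, 3 of 6 genes, beside 1 rise and 2 genes not called. Its median log2 fold change was −0.08. UNG, the glycosylase that removes uracil from DNA, had the largest fall among the called genes, with an FPKM of 20.9 and 20.6 with knockdown and 27.5 and 26.5 with SCR (log2 fold change −0.36, SE 0.04, adjusted p = 0.00258). APEX1, the endonuclease that cuts at the abasic site left by a glycosylase, had 55.9 and 54.3 against 68.3 and 65.7 (log2 fold change −0.28, SE 0.04, adjusted p = 0.00644). PARP1, which senses strand breaks and marks them with poly(ADP-ribose), had 22.4 and 23.5 against 25.9 and 26.2 (log2 fold change −0.18, SE 0.04, adjusted p = 0.0219). In each of these 3 genes both knockdown libraries were below both SCR libraries. UNG and PARP1 have 2 named pseudogenes each.

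XRCC1, the scaffold that PARP1 activity recruits to single-strand breaks, went the other way. Its FPKM was 41.7 and 42.4 with knockdown and 27.0 and 26.03 with SCR (log2 fold change 0.65, SE 0.03, adjusted p = 7.34e-04). XRCC1 and PARP1 were about level in the SCR libraries, with ratios of 1.04 and 0.992, and stood at 1.86 and 1.81 in the knockdown libraries. MPG, the glycosylase for alkylated purines, had 34.9 and 37.4 against 34.15 and 31.1 and was not called (log2 fold change 0.14, SE 0.07, adjusted p = 0.148), though it was called higher with GC and length trends removed (adjusted p = 0.0376). OGG1, the glycosylase for oxidised guanine, had 10.7 and 12.02 against 10.8 and 11.5, and its libraries overlapped (log2 fold change 0.02, SE 0.07, adjusted p = 0.793).

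ALKBH2 and ALKBH3, the dioxygenases that reverse alkylation of bases, both rose. ALKBH3 had an FPKM of 34.3 and 32.9 with knockdown and 23.2 and 24.0 with SCR (log2 fold change 0.49, SE 0.04, adjusted p = 0.00166). ALKBH2 had 11.7 and 11.75 against 9.62 and 9.46 (log2 fold change 0.27, SE 0.03, adjusted p = 0.00349). ALKBH2 lies next to UNG on chromosome 12. It spans 109088188 to 109093488 on the minus strand, UNG spans 109097594 to 109110993 on the plus strand, and 4105 bases separate them (GRCh38). These neighbours moved in opposite directions, and the ratio of ALKBH2 to UNG was 0.3496 and 0.357 in the SCR libraries and 0.558 and 0.571 in the knockdown libraries.

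Mismatch repair genes had the median nearest to 0. Of 3 genes, 1 rose, 1 fell and 1 was not called, with a median log2 fold change of 0.03. MSH6, which recognises single mismatches, was the most abundant, with an FPKM of 24.95 and 26.3 with knockdown and 24.6 and 25.6 with SCR (adjusted p = 0.614). MSH3, which recognises larger loops, had 5.27 and 5.70 against 6.21 and 6.51 (log2 fold change −0.18, SE 0.05, adjusted p = 0.0427). PMS2, an endonuclease, had 9.99 and 9.64 against 8.48 and 8.98 (log2 fold change 0.15, SE 0.04, adjusted p = 0.0455). The PMS2 call is uncertain, since 11 named pseudogenes share its sequence and 6 of the 8 alternatives that kept all libraries lost it. The MSH3 call was lost under 2 of them.

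Ratios between related genes were read in each library, since a ratio within a library does not depend on its scaling. Some pairs share a complex or step, others are of parallel branches (such as ATR to ATM), and ALKBH2 to UNG are neighbours on the chromosome. Of 13 pairs, 12 had a higher ratio in both knockdown libraries than in both SCR libraries and 1, ALKBH2 to ALKBH3, had a lower ratio. The pairs were written with earlier results known, so this count only describes them. The order of the 2 genes in a pair sets whether its ratio counts as higher or lower, so the split of 12 to 1 depends on that order. How often the ratios of other gene pairs separate was not counted. With 2 libraries a group, an exact permutation test (2-sided) of a ratio cannot go below p = 0.333, and none was run. The largest shifts were in XRCC1 to PARP1, where the mean ratio with knockdown was 1.80 times that with SCR, BRCA1 to BRCA2 with 1.72 and XRCC5 to XRCC6 with 1.67. The smallest on the log2 scale were in ALKBH2 to ALKBH3, with a difference of −0.21, MSH6 to MSH3 with 0.25 and FANCA to FANCG with 0.27. Fold changes within these pairs were thus unequal in these libraries.

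**Figure D3:**
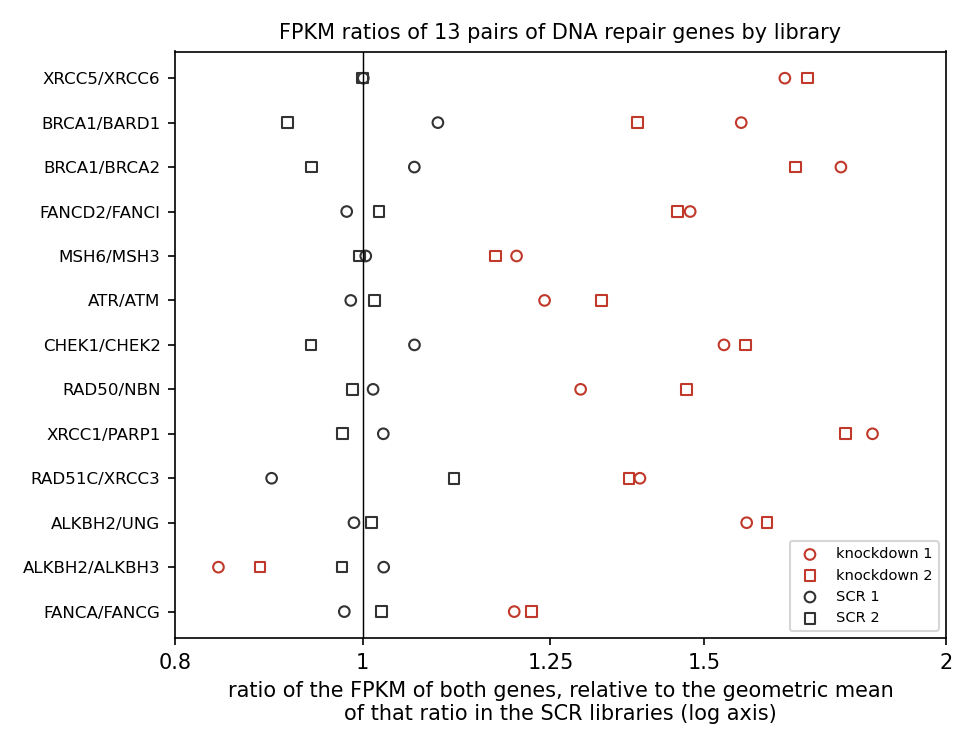
FPKM ratio of the first to the second gene of 13 pairs in each library, divided by the geometric mean of that ratio in the SCR libraries, on a log axis. Red points are the knockdown libraries and black points the SCR libraries. In 12 pairs both red points lie to the right of the black ones, and in ALKBH2/ALKBH3 to the left. The order of the genes in a pair sets the side.

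The counts were also read by level and by GC content, with no test of the difference. Of the 20 members with the lower mean level in SCR, 16 were called higher, with a median log2 fold change of 0.42. Of the 20 with the higher level in SCR, 10 were called higher and 5 lower, with a median of 0.17. The SCR level is also the reference of the fold change, so this split and the fold change are not independent. The median GC content of the transcripts was 42.6% for the genes called higher, against 41.5% for the 8 not called, 50.5% for the 6 called lower and 47.9% for genes whose mean FPKM was 1 or more. With GC and length trends removed, 25 of the 40 were called higher and 6 lower, and the median log2 fold change was 0.24. Of the 16532 genes in that fit, 5154 were called higher and 5962 lower, against 5107 and 4496 of 16595 in the main fit.

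Promoter sequences were compared because the members moved largely in one direction. Windows of 250 bases before to 50 after the gene start were taken from RefSeq (GRCh38.p14), which held one for 34 of the 40 members. RAD54B, FANCI, NBN, XRCC5, PRKDC and ALKBH2 had none. The windows of the 2 members with the largest rises, FANCA and CHEK1, and of UNG, the member with the largest fall in log2(FPKM + 1), are printed 5′ to 3′ on the strand of the gene, with motif matches in capitals. That of FANCA is at chr16:89816598-89816897 on the minus strand, that of CHEK1 at chr11:125625979-125626278 on the plus strand and that of UNG at chr12:109097347-109097646 on the plus strand.
FANCA: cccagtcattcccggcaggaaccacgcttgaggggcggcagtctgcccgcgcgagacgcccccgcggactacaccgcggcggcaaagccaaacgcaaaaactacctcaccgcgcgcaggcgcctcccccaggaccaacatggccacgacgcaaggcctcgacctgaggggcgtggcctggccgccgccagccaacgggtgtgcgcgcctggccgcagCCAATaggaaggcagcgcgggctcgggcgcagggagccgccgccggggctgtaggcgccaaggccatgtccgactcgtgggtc
CHEK1: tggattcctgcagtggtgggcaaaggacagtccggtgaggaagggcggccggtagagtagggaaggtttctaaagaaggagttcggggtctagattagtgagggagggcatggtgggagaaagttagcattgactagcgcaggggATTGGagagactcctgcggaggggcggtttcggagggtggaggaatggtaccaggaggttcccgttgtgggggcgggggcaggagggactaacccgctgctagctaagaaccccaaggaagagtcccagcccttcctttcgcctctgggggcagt
UNG: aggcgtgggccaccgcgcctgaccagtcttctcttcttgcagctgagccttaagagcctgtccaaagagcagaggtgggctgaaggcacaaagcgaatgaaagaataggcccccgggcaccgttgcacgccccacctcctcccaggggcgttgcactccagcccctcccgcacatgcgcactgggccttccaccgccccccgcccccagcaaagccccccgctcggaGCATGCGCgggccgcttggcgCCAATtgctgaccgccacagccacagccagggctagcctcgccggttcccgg

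The capitals mark a CCAAT box (CCAAT or its reverse ATTGG) in all 3 windows, which begins 33 bases before the start of FANCA, 105 before that of CHEK1 and 2 before that of UNG, and in UNG also the NRF1 core GCGCATGC on the reverse strand. These 3 windows were picked by the fold changes of their genes, and the part of the motif in those changes was not tested. In 31 of the 34 windows the start lay within 300 bases of the start in the deposited gene table. The others were CHEK1, 1093 bases away, MPG, 1206 bases away, and BRCA1, 44844 bases away, so the BRCA1 window, which held none of the motifs, may not be a promoter of the measured transcripts. CCAAT was found in 19 of the 34 windows (55.9%), against 35.7% of all 27305 windows of this length. The median log2 fold change was 0.15 for members with it and 0.47 for the 15 without. E2F motifs, TTTCCCGC or TTTGGCGC on either strand, were in 6 of the 34 (17.6%), against 2.31% of all windows. These 6 were FANCD2, XRCC2, MSH6, FANCC, XRCC6 and MSH3. They included 2 genes that rose and 2 that fell, and their median log2 fold change was −0.01, against 0.37 for the 28 members without a match. The CHR motif TTTGAA was in 4 (11.8%, against 15.4%) and the NRF1 core in 4 (11.8%, against 3.27%). Over the 13258 windows of tested genes the shares were 36.6% for CCAAT, 3.31% for E2F, 11.03% for CHR and 4.72% for the NRF1 core, so the CHR share of the members lay below that of all windows and close to that of tested genes. A match describes letters in a window, and binding was not measured. The median GC content of the members' windows was 64.8%, against 58.3% for all windows.

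A longer list of repair genes outside the 40 was counted in the same way. Of 89 such genes with a value, out of 91 listed, 44 rose, 13 fell and 32 were not called, with a median log2 fold change of 0.21. The 44 are 49.4% of the list, against 30.8% of all genes tested and 41.1% of those whose mean FPKM was 1 or more, and the 13 are 14.6%, against 27.1% and 33.5%. The median was 0.10 with GC and length trends removed, and the count of higher genes was 24 without knockdown 1, 21 without knockdown 2, 29 without SCR 1 and 25 without SCR 2. Without either SCR library 8 were lower. RAD18, a ubiquitin ligase of damage tolerance, rose most, with an FPKM of 9.23 and 10.1 with knockdown and 3.77 and 3.95 with SCR (log2 fold change 1.13, SE 0.06, adjusted p = 6.26e-04). The helicase gene RECQL had 58.7 and 58.7 against 26.5 and 27.7 (log2 fold change 1.09, adjusted p = 3.79e-04). RAD51D, a recombination gene, fell most, with 3.33 and 3.39 against 6.84 and 6.51 (log2 fold change −0.82, SE 0.04, adjusted p = 5.51e-04). FANCE, a core subunit like FANCA, also fell, with 1.57 and 1.58 against 3.05 and 3.05 (log2 fold change −0.65, adjusted p = 5.15e-04). The Fanconi core complex therefore held genes that rose and a gene that fell. DDB1, which recognises damage for nucleotide excision repair as part of a complex, was among the most abundant of these 89 genes and fell, with 62.1 and 61.6 against 78.2 and 78.6 (log2 fold change −0.34, SE 0.03, adjusted p = 0.00187).

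Proliferation markers rose as well. Of 30 genes, 27 were called higher (90%, against 30.8% of all genes), 3 were not called (TOP2A, CCNE1 and GMNN) and 0 were lower by limma, where 0 also had an unadjusted p under 0.05 and a negative fold change. Their FPKM values summed to 1575 to 1606 with knockdown and 925 to 942 with SCR, and their median log2 fold change was 0.73. AURKA, a mitotic kinase, had 71.1 and 67.9 against 25.3 and 24.6 (log2 fold change 1.44, SE 0.04, adjusted p = 3.10e-04). UBE2C, a ubiquitin carrier of mitotic exit, had 162 and 149 against 68.5 and 67.3 (log2 fold change 1.18, SE 0.05, adjusted p = 5.36e-04). The 40 repair genes summed to 850 to 869 with knockdown and 716 to 726 with SCR. Both sums were higher in both knockdown libraries. The sum over all genes tested was also higher, at 438504 to 444265 with knockdown and 419861 to 424645 with SCR. The part of the proliferation markers in the rise of the repair genes was not tested. The paper reports the opposite direction for growth. In its viability and colony assays U87 cells proliferated less after the knockdown, and tumors in mice were smaller. Marker RNA is not a measure of growth, and the difference from those assays was not tested.

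**Figure D4:**
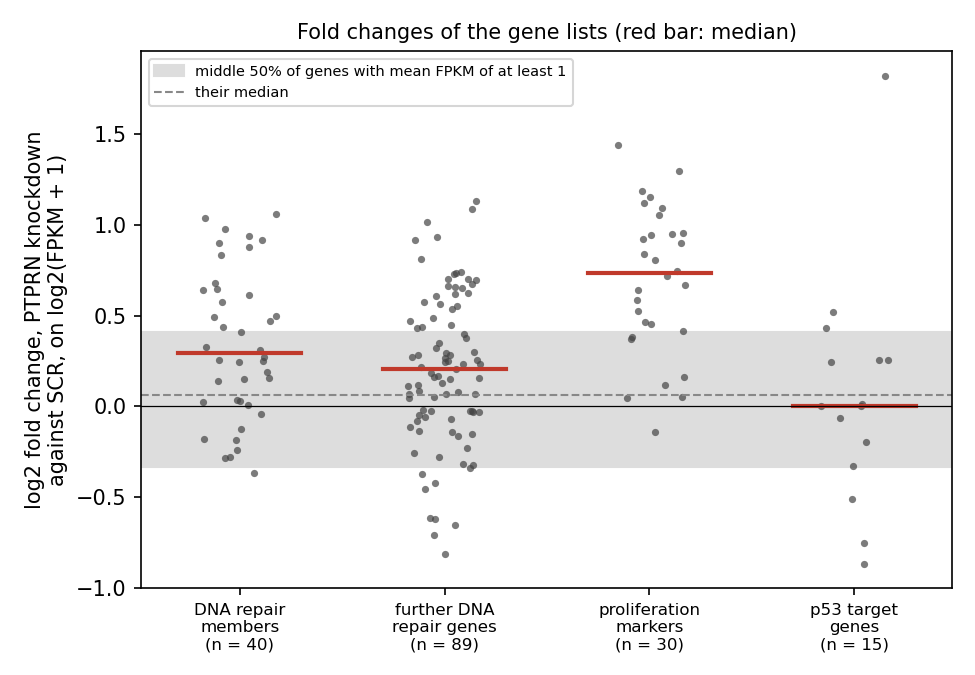
Log2 fold change of each gene in 4 lists, PTPRN knockdown against SCR on the log2(FPKM + 1) scale, with the median of each list as a red bar. The grey band holds the middle 50% of genes whose mean FPKM was 1 or more, and the medians stand at 0.29 for the 40 repair genes, 0.21 for the further repair genes, 0.73 for the proliferation markers and 0.00 for the p53 target genes.

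The p53 target genes with a part in the damage response were called at shares near those of all genes. Of 15 genes, 5 rose (33.3%, against 30.8% of all genes), 3 fell (20%, against 27.1%) and 7 were not called, with a median log2 fold change of 0.00. Leaving out any library lowered the count of higher genes, to 2 without SCR 2 and 3 without each of the others, and without knockdown 2 the count of lower genes was 1. With GC and length trends removed 6 were lower, and the count of lower genes over all genes went from 4496 to 5962. CDKN1A, an inhibitor of cyclin-dependent kinases, had an FPKM of 147 and 143 with knockdown and 146 and 144 with SCR (log2 fold change 0.00, adjusted p = 0.998). GADD45A, a stress-induced gene, had 93.2 and 91.5 against 26.4 and 24.5, and the groups were far apart (log2 fold change 1.82, adjusted p = 3.04e-04). TP53I3 had the largest fall of the list, with 7.05 and 6.07 against 14.0 and 11.6 (log2 fold change −0.87, adjusted p = 0.00631). DDB2 and XPC of this list are also among the further repair genes.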

How the data were processed

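RNA of 4 U87 libraries, 2 with PTPRN knockdown and 2 with SCR, was read single-end on a BGISEQ-500. Only FPKM values, one for every gene in each library, were deposited by the authors, and no read counts. The submitters' processing notes list HISAT2 2.1.0 and hg19, while the deposited gene positions are those of GRCh38, which were used here. The counting program, the annotation and the use of strand are not given in the sources used here, so reads of overlapping antisense genes could not be told apart. The 66380 FPKM values given in both deposited tables did not differ. The deposited tables also hold the authors' own comparisons (DEGseq and PossionDis results with fold changes and error rates, and group averages), which were not used.

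Tests ran over the 16595 genes that had any value above 0, with limma 3.58.1 (R 4.3.3, lmFit and eBayes at their defaults) on log2(FPKM + 1), without covariates beside the group and with Benjamini-Hochberg adjustment over all of them. The fit had 3.72 degrees of freedom, of which 1.72 came from the prior. A gene was called where its adjusted p did not pass 0.05. The strict call used the study's limits, a minimum fold change of 2 and a maximum adjusted p of 0.001. Depth was estimated from the whole-read steps of the low FPKM values of single-transcript genes, with 85.9% to 88.6% of the 419 to 433 values within 0.2 of a whole read. Intervals were not formed, and read estimates cover counting error only. The members, the gene lists, the pairs and the motifs were chosen with earlier results of these data known. Values per library were given for the members with the highest level, the largest rise and the largest fall of each role and then for the rest. RAD51D, RECQL, FANCE, RAD18 and DDB1 were named by a like rule, and some genes it picks are not reported here. Promoter windows came from RefSeq and pseudogene names from GENCODE 29. Figures were drawn with matplotlib 3.10.9. The 12 alternatives were a pseudocount of 0.1, a filter (FPKM of 1 or more in 2 libraries), a replicate block, scaling by quantiles or by median ratios, eBayes with a trend, alone or made robust, loess removal of GC and length trends, and each of the 4 libraries left out in turn.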

Additional observations from a re-analysis of the deposited data

How the results depend on the processing

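Of the 32 called repair genes, none changed direction under any of the 12 alternatives, and 17 kept their call in all of them. These were BRCA1, PALB2, RAD51AP1, RAD54L, EXO1, FANCA, FANCD2, FANCI, FANCG, FANCL, CHEK1, XRCC5, LIG4, XRCC1, ALKBH2 and ALKBH3, which were higher, and UNG, which was lower. The deviations of same-numbered libraries of the 2 groups hardly correlated over 11272 genes (r = 0.06). A low correlation over all genes cannot show whether these libraries were paired, and no label says so. With the replicate block 24 members were higher and 6 lower. Both strict counts fell to 0 with the replicate block and with the pseudocount 0.1, from 1111 for all genes and 2 for the members. With the block 31 members, and with the pseudocount 0.1 32 members, still had an unadjusted p under 0.05. FANCA and CHEK1 had log2 fold changes of 1.02 to 1.23 and 0.92 to 1.13 over the alternatives. The strict member count was 1 with median-ratio scaling and 1 with GC and length trends removed. That last setting also gave medians of 0.24 for the members, 0.10 for the further repair genes and 0.58 for the proliferation markers. It called 2 proliferation markers and 6 p53 targets lower, while the lower calls over all genes went from 4496 to 5962. Quantile normalization gave medians of 0.67 for the proliferation markers and −0.051 for the p53 targets. No scaling moved the median of all genes by more than 0.04.

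With each library left out in turn, where the lone library is taken to vary like the other group, all genes gave 3275 to 3375 higher, 2884 to 2957 lower and 0 strict calls. The members gave 17 to 19 higher, 1 to 3 lower, 0 strict calls and a median of 0.28 to 0.34. Between 26 and 27 members then had an unadjusted p under 0.05. The further repair genes gave 21 to 29 higher, 8 to 11 lower and a median of 0.17 to 0.21. The proliferation markers gave 0 to 1 lower, the 1 being without SCR 2, and a median of 0.71 to 0.78. The p53 targets gave 2 to 3 higher, 1 to 3 lower and a median of −0.002 to 0.02. The cause of these changes was not tested, apart from the smaller number of libraries.

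Direction turned for 6 members, none of them called. The log2 fold change was −0.117 for RAD51C, −0.0838 for MSH6, −0.117 for NBN and −0.0544 for OGG1 with GC and length trends removed. With median-ratio scaling it was −0.0152 for MSH6, −0.0291 for ATM, −0.0111 for NBN and −0.0184 for OGG1. With quantile normalization it was −0.0228 for MSH6 and 0.0459 for FANCC. With each library left out in turn it ran from −0.0067 to 0.067 for MSH6, from −0.0183 to 0.0342 for ATM, from −0.0017 to 0.0674 for NBN and from −0.0534 to 0.103 for OGG1. The variance between replicates was 1.55 to 1.75 times the variance of counting. The shallowest value of a member rested on about 137 reads, and no limit of detection was measured.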
